A study of Homo sapiens with 5 samples.

Results

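The genes described here encode the proteins of the mitochondrial ribosome. They are the protein-coding genes of GENCODE 29 whose symbol begins with MRPL or MRPS followed by a digit, matched to the files by Ensembl ID. There were 78 of them among the 30631 genes in the files, and all 78 had a value in every library. MRPL names were given to proteins of the large (39S) subunit and MRPS names to proteins of the small (28S) subunit, with a few exceptions given below. The cells were COV434, which the labels describe as a human ovarian granulosa tumour line. Messenger RNA was sequenced from 3 libraries of cells given 3-nitropropanoic acid (3-NP), which blocks complex II (succinate dehydrogenase), and from 2 libraries of control cells. All titles name COV434, but the cell line field counts up to COV438 over the 5 samples, and no dose, exposure time or harvest date is given. Separate cultures are not stated either, so each p-value reflects only the scatter of these 5 samples, which may be technical.

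Mitochondria keep a ribosome of their own, which translates the few messages encoded by mitochondrial DNA, all of them for subunits of the respiratory chain and ATP synthase. Its ribosomal RNAs are transcribed inside the organelle, whereas every ribosomal protein is encoded in the nucleus, made in the cytosol and imported. Some of these proteins descend from bacterial ribosomal proteins and others were added in the mitochondrial lineage, and assembly factors and rRNA-modifying enzymes bring the parts together.

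Levels are FPKM, which corrects read numbers for the length of the gene and the size of the library. Between genes they can be compared only roughly, and less so where gene models overlap, as described below. Depths recovered from the values were 18653366 to 18883148 reads in the 3-NP libraries, and 17837769 and 18752968 reads in the controls. Tests used limma on log2(FPKM + 1) over all genes that reached 1 FPKM in 2 or more libraries, and a gene was called at a Benjamini-Hochberg adjusted p under 0.05. Changes are 3-NP minus control on that log2 scale, which understates changes of low genes. Of 14 granulosa markers 8 could be tested, of which 4 fell (50%, beside 40.8% called of all genes) and none rose (1 was higher at an unadjusted p under 0.05, and voom called 4 falls and 0 rises). The summed level of the 14 was 32.2 to 36.4 FPKM in 3-NP cells, against 54.8 and 58.1 FPKM in control cells. The granulosa transcription factor FOXL2 was among those that fell (2.51 ± 0.188 FPKM in 3-NP cells, n = 3, against 6.20 ± 0.988 FPKM in control cells, n = 2). The largest fall was in FST, with means of 2.31 FPKM in 3-NP cells and 8.95 FPKM in control cells (−1.61, limma adjusted p = 0.00113). INHBB (−0.85, adjusted p = 0.00289) and NR5A1 (−0.82, adjusted p = 0.00528) fell as well. GATA4, another factor of these cells, and STAR, which brings cholesterol into mitochondria, were higher in every 3-NP library than in both controls but not called. GATA4 averaged 2.65 FPKM in 3-NP cells and 1.81 FPKM in control cells (adjusted p = 0.0846), and STAR 4.80 and 3.91 FPKM (0.185). The aromatase gene CYP19A1, the FSH receptor gene FSHR and WT1 were listed at 0 in both controls and stayed under 0.08 FPKM in 3-NP cells, so some defining markers of the labelled cell type were absent or nearly so. Of 6 epithelial and fibroblast markers tested, CLDN4 rose and COL1A1 and COL1A2 fell, but CLDN4 entered the test only through 3-NP libraries. The sum of that 12-gene list was 169 to 354 FPKM in 3-NP cells, against 927 and 929 FPKM in control cells. Most of that sum was collagen and it does not speak for the other genes, with COL1A1 at a mean of 134 FPKM in 3-NP cells and 613 FPKM in control cells, and COL1A2 at 111 and 253 FPKM. The 5 blood and endothelial markers in the files were all under 1 FPKM. Whether these shifts have a part in the results below was not tested, and fewer cells of a type cannot be told apart from less RNA per cell in such bulk samples.

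Only a minority of the genes for the mitochondrial ribosome were called, and the calls went in both directions. Of the 78 genes 74 could be tested, 14 fell and 3 rose in 3-NP cells, and 57 were not called. At an unadjusted p under 0.05 there were 28. The 17 calls made 23.0% of those tested, beside 40.8% of all 11858 genes tested. MRPS17 and MRPS28 reached 1 FPKM in libraries of 1 group only, where they were high, so their differences were built into the choice. Leaving such genes out, an alternative added after the data had been seen, gave 3 rises and 13 falls among 72 genes (22.2%), beside 37.2% of all genes left. Over all genes 25.2% were called lower and 15.5% higher. The median change was −0.155 for the 74 genes and −0.111 for all genes tested. The changes of the ribosomal protein genes also lay closer together, with an SD of 0.403 against 0.695 over all genes, and none was outside −1.15 to 0.66. In 59 of the 74 genes the group means differed by less than 1.5-fold, and only 3 calls, the falls of MRPL1, MRPL15 and MRPS17, reached 2-fold, beside 12.4% of all genes called at 2-fold or more. 3-NP and control libraries were apart in 43 of the 74 genes, 29 with every 3-NP library below both controls and 14 with every 3-NP library above them. Over all genes 64.2% did not overlap, 38.4% below and 25.8% above. The difference between this list and other genes was not tested. Ribosomal protein genes are short, with a median exon length of 2539 bases against 4694 for protein-coding genes in the files. Among other protein-coding genes between 1243 and 5382 bases, the band that holds the middle of the list, 42.5% were called and the median change was −0.064.

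How far the calls held depended on the 2 control libraries. With control replicate 1 left out, none of the 73 genes then tested rose and 5 fell, and with control replicate 2 left out 2 rose and 2 fell, while calls over all genes dropped to 16.2% and 18.5%. Without 3-NP replicate 1 there were 5 rises and 11 falls (21.9%, beside 45% of all genes). Without 3-NP replicate 2 there were 2 and 9 (15.1%, beside 35.2%), and without 3-NP replicate 3 there were 1 and 15 (21.6%, beside 38.6%). MRPL1 and MRPL15 were the only genes called in all 14 alternative analyses. Rescaling also moved the split, to 6 rises and 13 falls after quantile normalization (25.7% called, beside 39.6% of all genes). There were 8 and 10 with median-of-ratios scaling (24.3%, beside 39.8%), and 2 and 23 with equal FPKM totals (33.8%, beside 43.2%). Without a low-value filter there were 0 rises and 9 falls among 78 genes (11.5%, beside 14.0%).

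**Figure D1:**
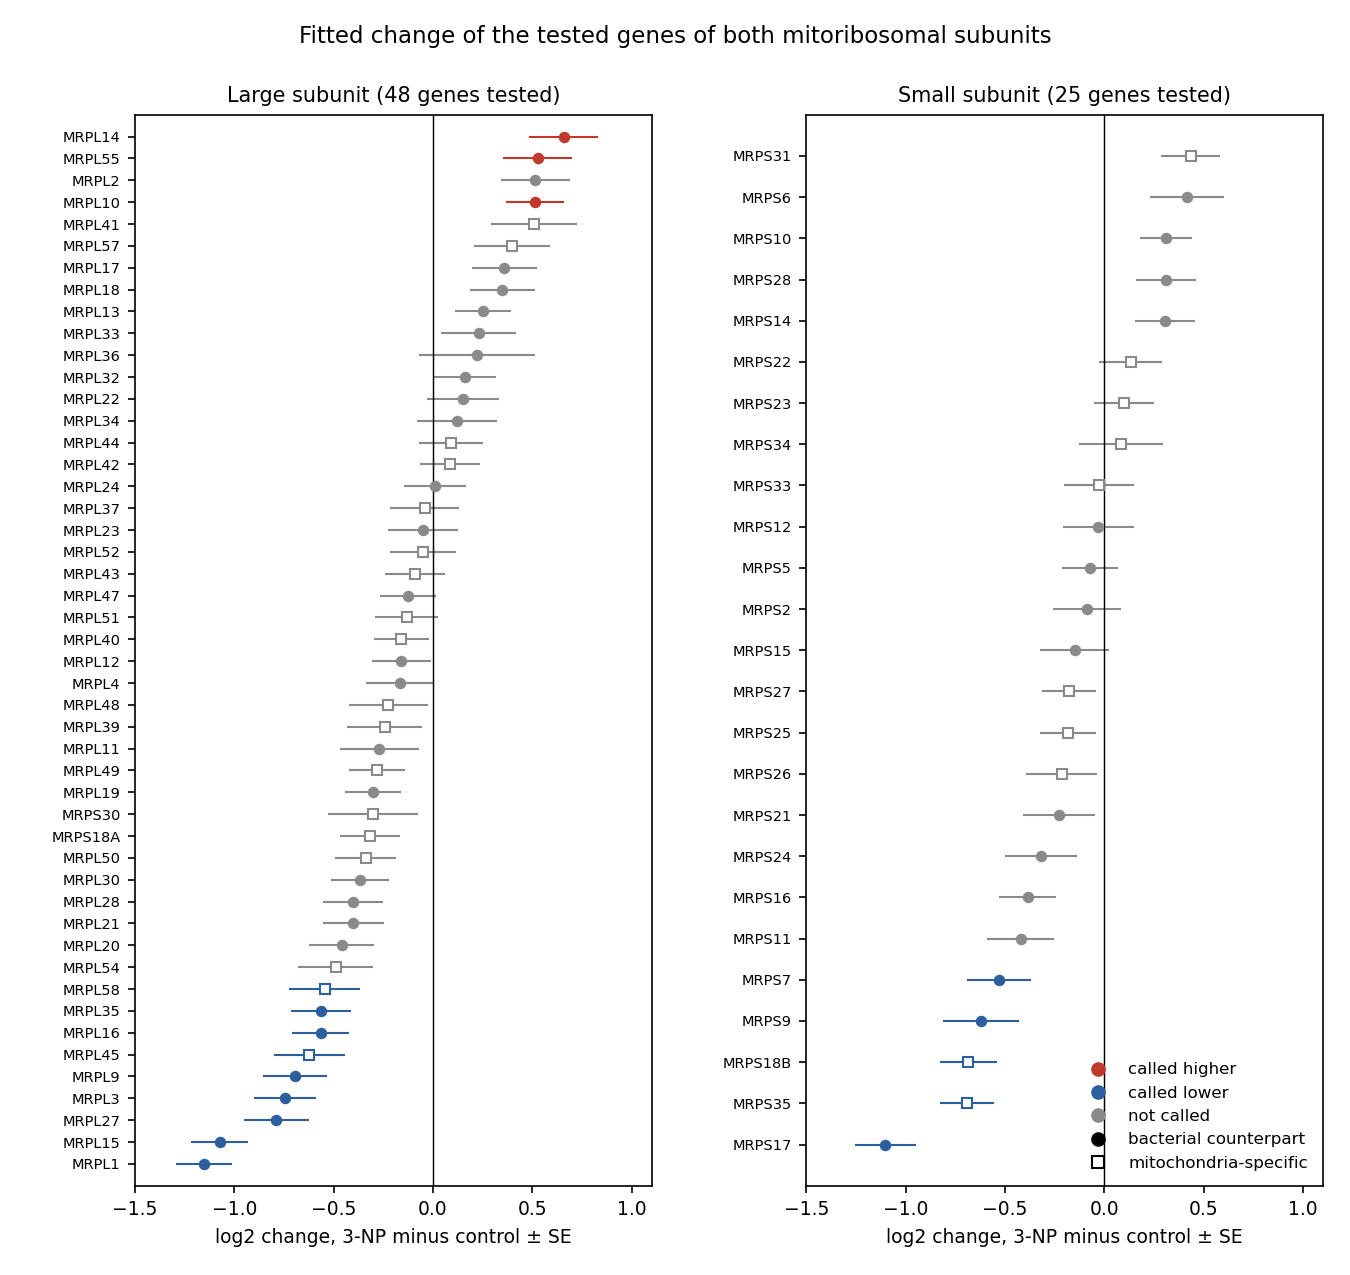
Fitted log2 change on the log2(FPKM + 1) scale, 3-NP minus control, with its standard error (bars) for the 48 tested genes of the large subunit and the 25 of the small subunit. Filled circles are genes with a bacterial counterpart, open squares mitochondria-specific ones, and colour gives the call. The 12 calls of the large subunit go both ways, and the 5 of the small subunit are all falls in this fit. Quantile normalization and median-of-ratios scaling each called 2 rises in the small subunit.

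In the large subunit 48 of 51 genes were tested, and 9 fell and 3 rose. These 12 calls were a smaller share than the 40.8% called of all genes tested (25.2% lower and 15.5% higher). MRPL1 fell most on the log2(FPKM + 1) scale. By the ratio of mean levels MRPS17 of the small subunit was lower, at 0.242 times the control mean beside 0.389 times for MRPL1. The product of MRPL1 belongs to the mobile L1 stalk, where spent tRNA leaves the ribosome. The gene lies on chromosome 4 (chr4:77862520-77952790, plus strand, GRCh38). MRPL1 had 3.57, 3.64 and 3.64 FPKM in the 3-NP libraries, against 8.40 and 10.2 FPKM in the controls. The 3-NP libraries were nearly equal to each other and all lay far below both controls, and the fitted change was −1.15 ± 0.14 (SE, limma adjusted p = 0.00129). MRPL15, a core protein of the subunit that lies against its rRNA, had 21.5, 20.5 and 24.8 FPKM in 3-NP cells, against 45.9 and 49.8 FPKM in control cells. Again no 3-NP library came near a control, and the change was −1.07 ± 0.14 (adjusted p = 0.00183). MRPL1 kept an adjusted p of 0.0104 and MRPL15 of 0.0177 with control replicate 1 left out, and of 0.0177 and 0.0228 with control replicate 2 left out.

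The next falls were of more moderate size. MRPL27, whose bacterial relative reaches towards the peptidyl transferase centre, had 7.33, 7.31 and 9.12 FPKM in 3-NP cells, against 12.8 and 16.1 FPKM in control cells. All 3-NP libraries were below both controls, with a change of −0.79 ± 0.17 (adjusted p = 0.00879). MRPL3, a protein that binds rRNA early in assembly in bacteria, had 17.6, 21.3 and 22.9 FPKM in 3-NP cells, against 34.0 and 35.9 FPKM in control cells. Its groups were also apart (−0.74 ± 0.15, adjusted p = 0.00853). MRPL9 (−0.69), MRPL16, whose bacterial relative lines the tRNA sites (−0.57), and MRPL35 (−0.56) completed the falls among genes with a bacterial counterpart. The mitochondria-specific ones were MRPL45 (−0.62), which sits at the mouth of the exit tunnel beside the inner membrane, and MRPL58 (−0.54). MRPL58, once named ICT1, is a ribosomal protein that can also free stalled ribosomes by cutting peptidyl-tRNA, and it had 12.6, 14.5 and 18.4 FPKM in 3-NP cells, against 21.4 and 23.2 FPKM in control cells. Its highest 3-NP library came closer to the controls than those of the genes above, and its adjusted p was 0.0442. Without control replicate 1, MRPL27 (adjusted p = 0.0310) and MRPL9 (0.0483) passed, and the other 5 had adjusted p from 0.0521 for MRPL16 to 0.141 for MRPL58. Without control replicate 2 all 7 missed, from 0.0681 for MRPL3 to 0.200 for MRPL58. MRPL16, MRPL45 and MRPL58 were also lost without 3-NP replicate 2 (adjusted p = 0.0517, 0.0674 and 0.0979) and MRPL58 without 3-NP replicate 1 (0.0654). With median-of-ratios scaling MRPL45 (0.0591) and MRPL58 (0.0984) missed, and with voom MRPL58 did (0.0570). With no low-value filter MRPL35 (0.0526), MRPL45 (0.0753) and MRPL58 (0.107) missed. MRPL58 kept its call in 7 of the 14 alternatives.

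The rises were MRPL14, MRPL55 and MRPL10, all with a bacterial counterpart. MRPL14 lies on the face that meets the small subunit and is the docking site of MALSU1, an assembly factor that keeps the subunits apart until the large one is ready. The gene is on chromosome 6 (chr6:44113454-44127457, minus strand, GRCh38) and was the second most abundant of the 78. MRPL14 had 76.0, 76.6 and 85.2 FPKM in 3-NP cells, against 42.4 and 58.4 FPKM in control cells. All 3-NP libraries were above both controls, although the controls differed more from each other than the 3-NP libraries did, and the change was 0.66 ± 0.17 (adjusted p = 0.0210). MRPL10 anchors the stalk of MRPL12 copies that recruits translation factors, and it had 19.1, 17.6 and 21.9 FPKM in 3-NP cells, against 12.9 and 13.7 FPKM in control cells. The groups did not overlap (0.51 ± 0.15, adjusted p = 0.0272). MRPL55 had 17.3, 19.2 and 22.4 FPKM in 3-NP cells, against 11.5 and 15.2 FPKM in control cells. Its lowest 3-NP library was not far above the higher control (0.53 ± 0.17, adjusted p = 0.0465). None of the 3 rises passed without control replicate 1 (adjusted p = 0.190 for MRPL14, 0.168 for MRPL10 and 0.317 for MRPL55). MRPL14 passed without control replicate 2 (0.0317), and MRPL10 (0.111) and MRPL55 (0.0645) did not. Without 3-NP replicate 3 MRPL10 had an adjusted p of 0.0764 and MRPL55 of 0.105, and MRPL55 had 0.0882 without 3-NP replicate 2. With no low-value filter MRPL14 (0.0618) and MRPL10 (0.0532) missed, and MRPL10 missed with the replicate block (0.116). MRPL55 also missed with equal FPKM totals (0.0582), voom (0.0566), the replicate block (0.115) and no low-value filter (0.109), and kept its call in only 6 of the 14 alternatives.

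**Figure D2:**
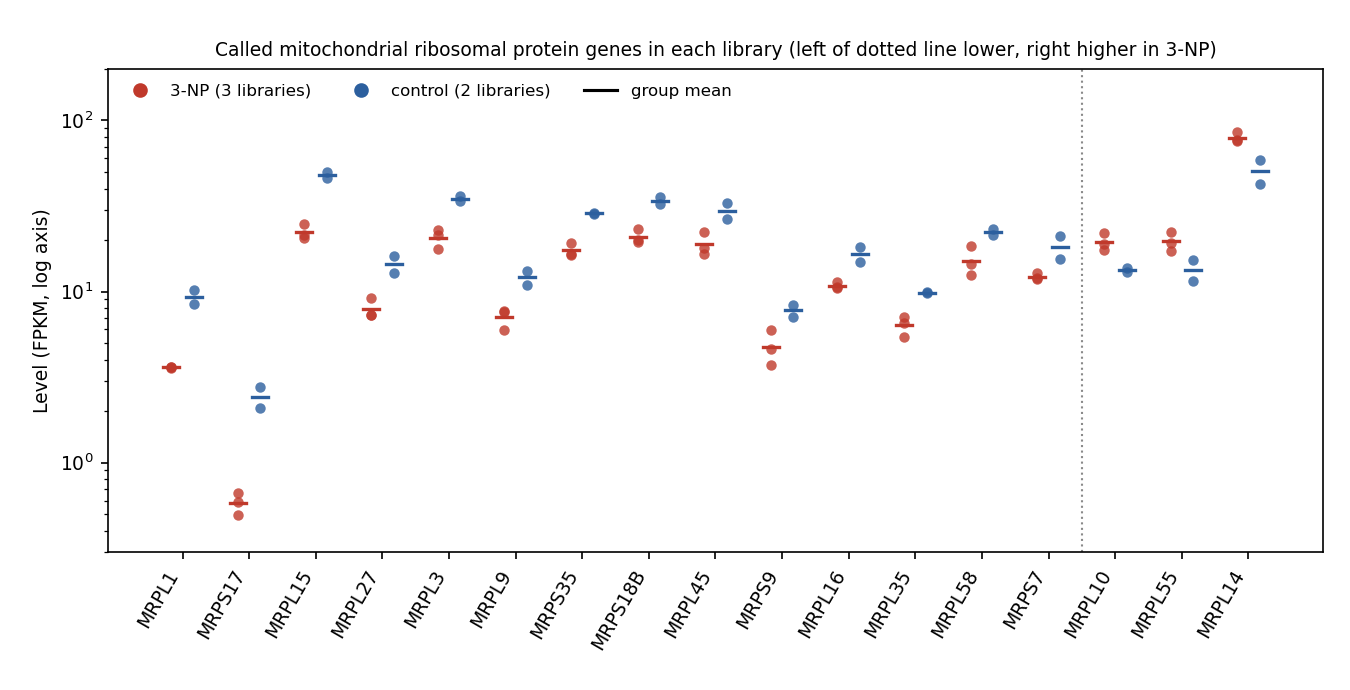
Level in FPKM (log axis) of the 17 called genes in each library, 3-NP (3 red points) to the left of control (2 blue points), with a bar at each group mean; genes run from the largest fall to the largest rise on the log2(FPKM + 1) scale, with the falls left of the dotted line. In none of the 17, which were picked for differing between these same libraries, do the points of the groups overlap. Over all genes tested 64.2% do not overlap. MRPL1 and MRPL15 are widely apart, and the controls of MRPL14 lie at 42.4 and 58.4 FPKM below 3-NP libraries at 76.0 to 85.2 FPKM.

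Calls thus fell on different parts of the large subunit, here grouped by place in the ribosome after the values had been seen. Of the stalk proteins MRPL10 rose, whereas MRPL11 (−0.27, adjusted p = 0.305) and MRPL12 (−0.16, adjusted p = 0.415) were not called. MRPL12, which also binds mitochondrial RNA polymerase, had 1.49, 1.15 and 1.34 FPKM in 3-NP cells, against 1.45 and 1.75 FPKM in control cells, and the groups overlapped. These levels stand for 29, 22 and 26 reads in 3-NP cells and 28 and 32 reads in control cells. The overlapping gene AC139530.2 on the same strand shares 96.0% of the coding bases of MRPL12, so its value is uncertain. At the exit tunnel MRPL45 fell, while MRPL22 (0.15), MRPL23 (−0.05) and MRPL24 (0.01) were not called. The central protuberance holds the mitochondria-specific MRPL38, MRPL40, MRPL46, MRPL48, MRPL52 and MRPL58. Of these MRPL58 fell, MRPL40 (−0.16), MRPL48 (−0.22) and MRPL52 (−0.05) were not called, and MRPL38 and MRPL46 were too low to test.

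In the small subunit 25 of 26 genes were tested, 5 fell and none rose. This too was a smaller share than the 40.8% called of all genes tested (25.2% lower and 15.5% higher). At an unadjusted p under 0.05 the small subunit had 2 genes higher and 7 lower by limma, and voom on recovered reads also called 0 rises and 5 falls. Quantile normalization and median-of-ratios scaling each called 2 rises and 3 falls. There were 1 rise and 5 falls with a pseudocount of 0.1, and 1 and 6 with the length trend removed. Without 3-NP replicate 1 there were 1 and 3. The other alternatives that keep both controls called no rise, so the lack of rises depended on the processing. MRPS17, whose bacterial relative binds rRNA early in assembly, had 0.589, 0.497 and 0.664 FPKM in 3-NP cells, against 2.07 and 2.75 FPKM in control cells. These levels stand for 24, 20 and 27 reads in 3-NP cells and 84 and 106 reads in control cells, and no 3-NP library came near a control. The fitted change was −1.10 ± 0.15 (adjusted p = 0.00212). All coding bases of MRPS17 (chr7:55951819-55956501, plus strand, GRCh38) also belong to the overlapping gene AC092647.5 on the same strand, so its value is uncertain. MRPS17 was under 1 FPKM in every 3-NP library and was tested only through the controls, so its call is no independent sign of a change. With a control left out it no longer met the level needed for testing. MRPS35 and MRPS18B, both mitochondria-specific, fell by 0.69 and 0.68 on the log2 scale (adjusted p = 0.00723 and 0.00902). MRPS35 had 16.7, 19.2 and 16.3 FPKM in 3-NP cells, against 28.5 and 28.8 FPKM in control cells, with the controls nearly equal and all 3-NP libraries well below them. MRPS9 fell by 0.62 and MRPS7 by 0.53 (adjusted p = 0.0358 and 0.0361). Both belong to the head of the subunit, where MRPS7 lies beside the tRNA exit site.

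MRPS35, MRPS18B and MRPS9 missed the threshold without control replicate 1 (adjusted p = 0.0603, 0.0514 and 0.207), and MRPS7 passed (0.0445). All 4 missed it without control replicate 2, with adjusted p of 0.0600 for MRPS35, 0.0818 for MRPS18B, 0.0911 for MRPS9 and 0.275 for MRPS7. MRPS9 and MRPS7 were also lost without 3-NP replicate 1 (0.0548 and 0.0531) and without 3-NP replicate 2 (0.0742 and 0.0828). Both missed too after quantile normalization (0.0739 and 0.0529), with median-of-ratios scaling (0.0674 and 0.0867) and with no low-value filter (0.103 and 0.0828). MRPS9 kept its call in 7 and MRPS7 in 8 of the 14 alternatives.

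By descent, 13 of 45 tested genes with a bacterial counterpart were called (28.9%, 10 falls and 3 rises). Of 28 mitochondria-specific genes 4 were called (14.3%), all falls. Over all genes 40.8% were called, 25.2% lower and 15.5% higher. Of the 28 genes, 2 were higher and 5 lower at an unadjusted p under 0.05, and voom called 0 rises and 3 falls. The medians of the change were alike, −0.151 and −0.169. The difference in calls between these classes was not tested.

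The 3 MRPS18 genes encode related proteins, each with a place of its own. In the grouping by descent used here MRPS18A and MRPS18B count as mitochondria-specific and MRPS18C as the bacterial counterpart, although all are related to the same bacterial protein. MRPS18B fell, with 19.9, 19.4 and 23.1 FPKM in 3-NP cells, against 32.3 and 35.7 FPKM in control cells. MRPS18A, whose product sits in the large subunit despite its name, had 10.02, 8.39 and 10.4 FPKM in 3-NP cells, against 11.2 and 13.2 FPKM in control cells. Its 3-NP libraries were all lower than the controls, but the change of −0.32 was not called (adjusted p = 0.135). MRPS18C stayed at 0.131 to 0.273 FPKM in 3-NP cells and at 0.265 and 0.318 FPKM in control cells, too low to test. MRPS30 is likewise a large subunit protein, and its change of −0.30 was not called (adjusted p = 0.322).

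The largest changes that were not called were, upward, those of MRPL2, a core protein near the peptidyl transferase centre (0.52, adjusted p = 0.0502), MRPL41 (0.51, adjusted p = 0.0983) and MRPS31 (0.43, adjusted p = 0.05001). MRPS31 had 7.65, 7.19 and 9.08 FPKM in 3-NP cells, against 5.77 and 5.46 FPKM in control cells, and every 3-NP library was above both controls. Downward they were those of MRPL54 (−0.49, adjusted p = 0.0727), MRPL20 (−0.46, adjusted p = 0.0594) and MRPS11 (−0.42, adjusted p = 0.0791). MRPS12, a protein of the decoding centre whose bacterial relative is the site of streptomycin resistance, had 22.1, 21.7 and 23.3 FPKM in 3-NP cells, against 18.9 and 27.7 FPKM in control cells. The 3-NP libraries all lay between the controls, and the change was −0.03 (adjusted p = 0.903). MRPS36, listed as KGD4 in the RefSeq gene table and known as a component of the oxoglutarate dehydrogenase complex, overlapped between groups as well (−0.03, adjusted p = 0.891).

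The levels themselves spanned 468-fold, although the proteins are parts of a single complex. The median over the 78 genes of the mean level in the 5 libraries was 13.1 FPKM, and 49 genes had 10 FPKM or more. MRPS34 led with 79.3, 91.9 and 107 FPKM in 3-NP cells, against 71.9 and 105 FPKM in control cells. The spread within each group was larger than the difference between them (0.08, adjusted p = 0.779). MRPL14, MRPL51 and MRPL41 followed, and MRPL51 (−0.13, adjusted p = 0.526) and MRPL41 were not called. At the other end, MRPL46, MRPL38, MRPS18C and MRPL53 were under 1 FPKM in every library and were not tested. MRPL53 had 0.355, 0.558 and 0.435 FPKM in 3-NP cells, against 0.674 and 0.959 FPKM in control cells. MRPL46 had the lowest mean, 0.195 FPKM.

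Low levels went with overlap between gene models. In 9 of the 78 genes at least 45% of the coding bases are also exon of another gene on the same strand, mostly readthrough models that join the gene to a neighbour. Their median level was 1.32 FPKM, against 17.1 FPKM for the others, and 8 of them were among the 10 lowest of the list. The exception, MRPL30 (95.3% of coding bases shared), ranked 59 by level, counted from the top. The limit of 45% was set after the levels had been seen. The other genes of the lowest 10 were MRPS25 and MRPS18C, and MRPS18C shares 45.1% of its coding bases with ABRAXAS1 on the opposite strand. How reads in shared exons were counted is not given in the sources used here, and its part in these levels was not tested. An alternative added after the data had been seen left out the 12 genes that share any coding base on the same strand. Of the other 65 tested 3 rose and 12 fell (23.1%, beside 40.8% of all genes), with a median change of −0.133.

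**Figure D3:**
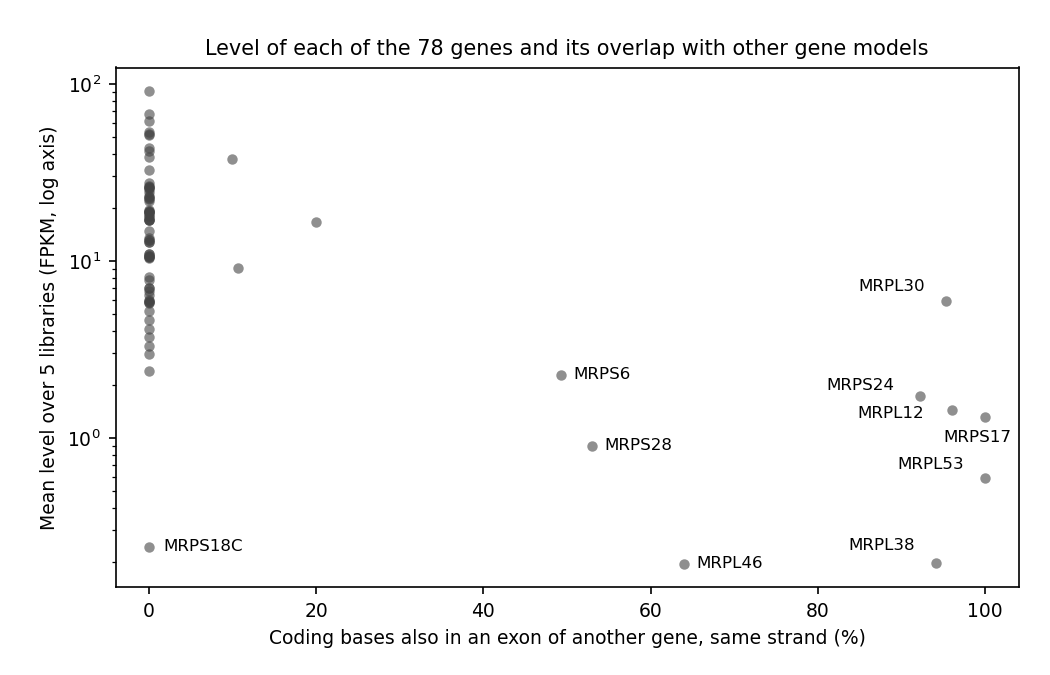
Mean level over the 5 libraries (FPKM, log axis) of each of the 78 genes against the share of its coding bases that also lie in an exon of another gene on the same strand; each point is a gene, and those at 45% or more and MRPS18C are named. Genes with much overlap sit low, with MRPL30 the highest of them, while most genes without overlap lie above 3 FPKM.

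The libraries of a group were not alike for this list. Control replicate 2 was above control replicate 1 in 65 of the 74 tested genes (87.8%), beside 51.4% of all genes tested and 67.4% of the other protein-coding genes in the length band given above. The median log2(FPKM + 1) of the 74 was 3.73, 3.81 and 3.99 in the 3-NP libraries, against 3.76 and 4.15 in the controls. The summed level was 1236, 1325 and 1488 FPKM in 3-NP cells, against 1276 and 1569 FPKM in control cells. Control replicate 1 thus lay within the 3-NP libraries and control replicate 2 above them. The median change was 0.00 without control replicate 2 and −0.234 without control replicate 1. For the list as a whole the groups overlapped. For MRPL1, MRPL15 and the other called genes they did not, but those genes were picked for differing between these same libraries.

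Other proteins of the mitochondrial ribosome carry other symbols, and of the 5 looked at, DAP3, PTCD3, AURKAIP1, CHCHD1 and GADD45GIP1, none was called by limma or by voom (1 was higher at an unadjusted p under 0.05). DAP3, a GTP-binding protein of the small subunit, came nearest (0.44, adjusted p = 0.0763), with 26.2, 30.2 and 35.4 FPKM in 3-NP cells, against 20.2 and 24.2 FPKM in control cells. All its 3-NP libraries were above both controls.

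Genes for assembling the mitochondrial ribosome and modifying its rRNA changed in both directions as well. Of 26 tested 13 fell and 4 rose, 65.4% beside 40.8% of all genes, with a median change of −0.488. The difference in calls between this list and the ribosomal protein genes was not tested. The rises included MALSU1, which docks on MRPL14. MALSU1 had 21.5, 20.1 and 21.9 FPKM in 3-NP cells, against 8.53 and 11.05 FPKM in control cells, with the groups far apart (1.05 ± 0.15, adjusted p = 0.00237). TFB1M, which methylates a pair of adenines in the small rRNA, had 7.28, 7.70 and 7.32 FPKM in 3-NP cells, against 3.41 and 3.44 FPKM in control cells. Its libraries hardly varied within groups (0.93 ± 0.13, adjusted p = 0.00203). NOA1, a GTPase of assembly, rose by 0.88 (adjusted p = 0.00325). TRMT2B, an RNA methyltransferase, had 1.45, 1.375 and 1.43 FPKM in 3-NP cells, against 3.45 and 3.91 FPKM in control cells, and fell by 0.95 (adjusted p = 0.00229). These 4 genes passed in all 14 alternatives. Picked after their values were seen, the DEAD-box helicase DDX28 (−1.06), the rRNA chaperone ERAL1 (−0.92) and the partners MTERF4 and NSUN4 (−0.68 and −0.63) also fell. Adjusted p was 0.00405 for DDX28, 0.00530 for ERAL1, 0.00915 for MTERF4 and 0.00950 for NSUN4. Without control replicate 1, DDX28 and ERAL1 passed (adjusted p = 0.0295 and 0.0218) and NSUN4 did not (0.102), and without control replicate 2 DDX28 passed (0.0429) and ERAL1 and NSUN4 did not (0.0538 and 0.0742). MTERF4 was then too low to test, having entered the test only through the controls, where it was high. With the length trend removed MTERF4 missed the threshold (adjusted p = 0.0526). Over the list, 3 rose and 4 fell of 24 without control replicate 1 (29.2%, beside 16.2% of all genes), and 3 rose and 2 fell without control replicate 2 (20.8%, beside 18.5%).

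Of 17 translation factors and related genes 5 fell and none rose (1 was higher at an unadjusted p under 0.05, and voom called 5 falls and 0 rises), 29.4% beside 40.8% of all genes. TACO1, needed to translate the message of cytochrome oxidase subunit I, had 4.69, 3.91 and 4.01 FPKM in 3-NP cells, against 10.4 and 12.9 FPKM in control cells. The groups were far apart (−1.28 ± 0.15, adjusted p = 0.00122), and the call held in all 14 alternatives. The initiation factor MTIF2 (−0.78), the release factor MTRF1 (−0.75), the recycling factor MRRF (−0.74) and, as the last of the 5, the elongation factor GFM1 (−0.54) also fell. Adjusted p was 0.00594 for MTIF2, 0.00752 for MTRF1, 0.00665 for MRRF and 0.0294 for GFM1. MTIF2, MRRF and GFM1 missed the threshold without control replicate 1 (adjusted p = 0.0566, 0.0826 and 0.246), and MRRF and GFM1 also without control replicate 2 (0.0598 and 0.0560). GFM1 was lost without 3-NP replicate 3 as well (0.0638). It also missed after quantile normalization (0.0839), with median-of-ratios scaling (0.0624), no low-value filter (0.0728), the length trend removed (0.0668) and the replicate block (0.0874). MTRF1, which was tested only through the controls, was too low to test with a control left out. Without such genes 4 of 16 fell.

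Of the rRNAs that these proteins bind, the large MT-RNR2 had 6099, 8890 and 7576 FPKM in 3-NP cells, against 3830 and 4103 FPKM in control cells, and rose (0.91 ± 0.23, adjusted p = 0.0176). It was lost without control replicate 1 or 2 (adjusted p = 0.109 and 0.0724) and without 3-NP replicate 2 (0.0862). MT-RNR2 also missed with no low-value filter (adjusted p = 0.224). The small rRNA MT-RNR1 had 1200, 1514 and 1651 FPKM in 3-NP cells, against 615.5 and 1182 FPKM in control cells, and was not called (0.76, adjusted p = 0.0789). The libraries were made with an mRNA kit, and its part in the rRNA levels was not tested. None of the 13 mitochondrial messages was called (median change −0.218), nor any of 4 genes for transcription of mitochondrial DNA, POLRMT, TFAM, TFB2M and TEFM, and in either list 0 genes had an unadjusted p under 0.05 and voom called 0. After quantile normalization 4 of the messages were called lower. Without 3-NP replicate 1 there were 2, MT-ND1 and MT-ND5 (adjusted p = 0.0176 and 0.0192).

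Genes of cytosolic ribosomal proteins, whose reads may be shared with pseudogenes, had a median change of 0.439, with 10 rises and 2 falls among 82 genes tested (14.6%, beside 40.8% of all genes). Of the 82, 80 were higher in control replicate 2 than in control replicate 1, as most of the mitochondrial list was. There were 55 rises without 3-NP replicate 1 (69.5% called with the falls, beside 45% of all genes), 28 with median-of-ratios scaling and none without control replicate 1. RPS16 rose (0.76, adjusted p = 0.0222), and the largest fall was in RPL7L1 (−0.95, adjusted p = 0.00181), a relative of RPL7 that works in ribosome biogenesis. RPS16 had 209, 253 and 289 FPKM in 3-NP cells, against 126 and 169 FPKM in control cells, and its adjusted p was 0.180 without control replicate 1 and 0.0552 without 3-NP replicate 2.

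**Figure D4:**
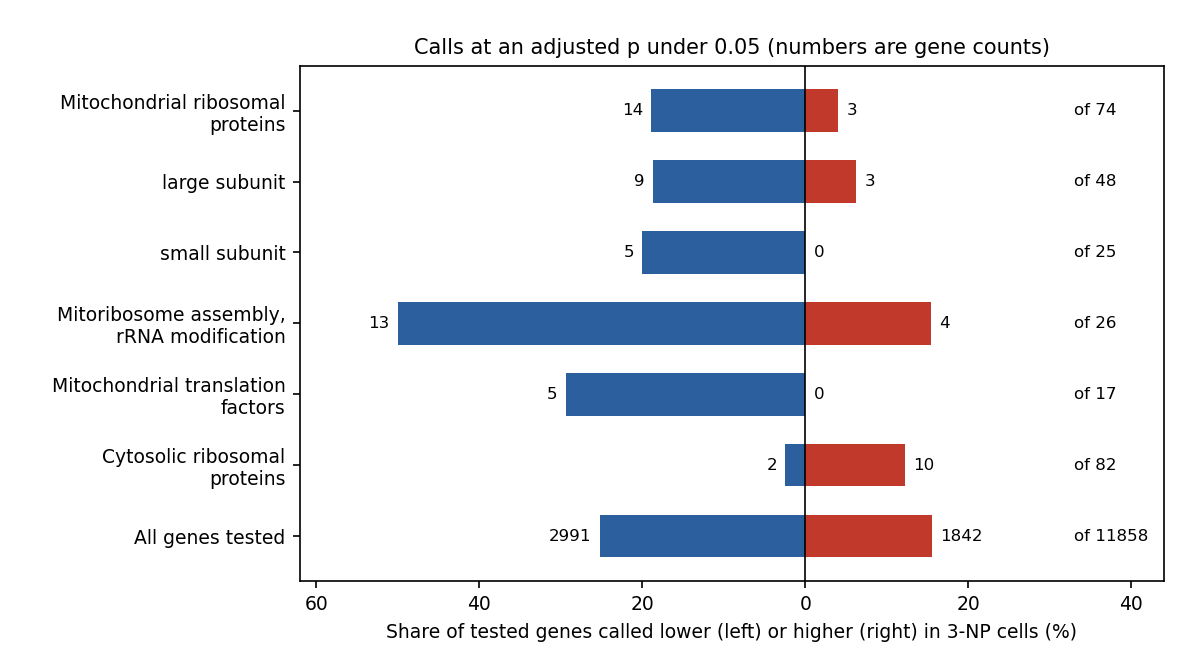
Share of tested genes called lower (blue, to the left) and higher (red, to the right) in 3-NP cells, in percent, for the mitochondrial ribosomal protein genes, their subunits, related gene lists and all genes tested, with the gene counts beside the bars and the number tested at the right. The mitochondrial ribosomal proteins have 14 falls and 3 rises of 74, beside 13 and 4 of 26 for assembly and rRNA modification.

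Many of these genes share their start region with a neighbour on the opposite strand. In 17 of the 78 (21.8%) the start lies within 1000 bases of the start of another protein-coding gene running the other way, beside 7.4% of all protein-coding genes. In 9 such pairs both genes were tested. None of the 9 ribosomal protein genes in them was called, so no pair could share a call. Of the 9 partners 4 fell and 0 rose, while over all genes 25.2% were called lower and 40.8% in either direction. The difference was not tested. The partners that fell are named here. They were IGHMBP2 beside MRPL21, ZNF189 beside MRPL50, SKA3 beside MRPL57 and EME2 beside MRPS34. Adjusted p was 0.00381 for IGHMBP2, 0.00459 for ZNF189, 0.0104 for SKA3 and 0.00251 for EME2. ZNF189 (0.0576) and SKA3 (0.0753) missed the threshold without control replicate 1, IGHMBP2 (0.0505) and SKA3 (0.0628) without control replicate 2, and EME2, which was tested only through the controls, was too low to test with a control left out. SKA3 missed with no low-value filter as well (adjusted p = 0.0526). SKA3, a kinetochore protein of mitosis, had a mean of 1.52 ± 0.560 FPKM in 3-NP cells (n = 3) and 3.82 ± 0.0932 FPKM in control cells (n = 2). It changed by −0.96, whereas MRPL57 changed by 0.40 (adjusted p = 0.132). Without information on how strand was handled, reads of such neighbours can be mixed where they overlap.

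Promoter windows of RefSeq (GRCh38.p14, 250 bases before to 50 after the gene start) were matched for 69 of the 78 genes and searched on both strands for letters of 4 motifs. The ETS motif, CCGGAAG, was found in 29 of the 69 (42.0%), beside 14.2% of 15842 protein-coding promoters. The YY1 motif, ANATGGCGG, was found in 19 (27.5%), beside 3.96% of all promoters, and in 15 of these genes it began after the gene start. The NRF1 motif, GCGCA and GCGC with 1 base of any kind between them, was found in 8 (11.6%, beside 8.57%) and the E-box CACGTG in 6 (8.70%, beside 8.88%). ETS or YY1 letters were present in 44 of the 69 (63.8%), beside 17.3% of all promoters. Among genes expressed well enough to be tested, 20.2% of protein-coding promoters held the ETS motif and 6.11% the YY1 motif. The ETS motif was in 4 of the 12 matched promoters of genes that fell and in 22 of the 51 of genes not called, and the YY1 motif was in 4 of the 12 and in 13 of the 51. Promoters are shown for the largest fall on the log2(FPKM + 1) scale, a further fall with a repeated ETS match, and the largest rise, with the matched letters in capitals, each read 5′ to 3′ along the gene's strand.
MRPL1 (chr4:77862580-77862879, plus strand): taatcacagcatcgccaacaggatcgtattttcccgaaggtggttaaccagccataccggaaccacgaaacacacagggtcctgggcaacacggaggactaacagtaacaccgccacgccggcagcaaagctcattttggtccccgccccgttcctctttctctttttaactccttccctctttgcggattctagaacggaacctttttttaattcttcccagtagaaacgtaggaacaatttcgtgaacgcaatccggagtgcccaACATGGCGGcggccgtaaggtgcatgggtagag
MRPL27 (chr17:50373135-50373434, minus strand): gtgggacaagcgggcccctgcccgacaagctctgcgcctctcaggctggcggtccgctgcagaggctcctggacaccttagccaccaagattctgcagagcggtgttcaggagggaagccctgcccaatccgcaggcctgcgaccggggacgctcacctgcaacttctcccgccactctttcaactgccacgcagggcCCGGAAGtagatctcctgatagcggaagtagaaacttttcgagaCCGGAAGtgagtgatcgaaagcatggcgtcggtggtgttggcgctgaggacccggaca
MRPL14 (chr6:44127259-44127558, minus strand): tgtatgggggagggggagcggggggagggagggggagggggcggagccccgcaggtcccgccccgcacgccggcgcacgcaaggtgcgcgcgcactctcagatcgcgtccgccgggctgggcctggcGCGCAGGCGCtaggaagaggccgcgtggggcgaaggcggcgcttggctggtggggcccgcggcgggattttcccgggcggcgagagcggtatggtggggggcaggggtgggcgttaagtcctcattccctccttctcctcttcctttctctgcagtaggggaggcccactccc
The YY1 match of MRPL1 begins 18 bases after the RefSeq gene start. The ETS matches of MRPL27 begin 52 and 8 bases before it, and the NRF1 match of MRPL14 begins 123 bases before it. For MRPL1 and MRPL14 the RefSeq starts lie inside the GENCODE 29 gene coordinates given above, and the MRPL1 window does so as a whole. These are matches of letters in a window, and binding was not measured.

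**Figure D5:**
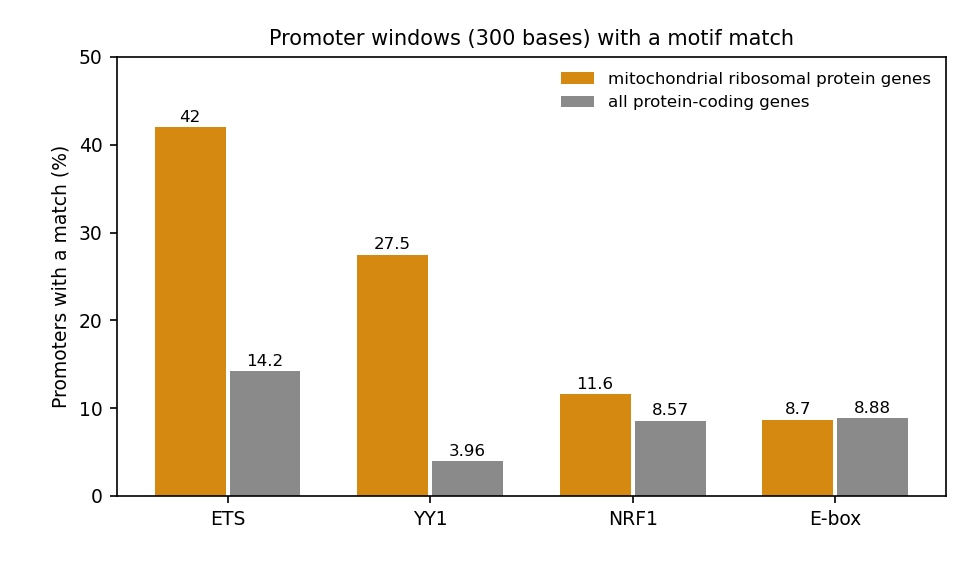
Share of promoter windows of 300 bases, in percent, that hold a match to each of 4 motifs, for the 69 mitochondrial ribosomal protein genes with a promoter and for 15842 protein-coding genes. The bars differ for ETS (42.0% and 14.2%) and YY1 (27.5% and 3.96%) and are close for NRF1 and the E-box.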

How the data were processed

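RNA-seq of 5 libraries (3-NP, n = 3; control, n = 2) was used, grouped by sample title. Per the labels' protocols, TRIzol was used for the RNA and a stranded mRNA kit for the libraries. Tools listed in the submitters' processing notes are HISAT2 2.1, Trimmomatic 0.39 and bcl2fastq 2.17, with the build GRCh38 (hg38). For the read counter, its annotation and its strand setting, the method was not given in the sources used here. The deposited values carry no unit and were taken to be FPKM, since they hold fractions, sum to 262081.3 to 299515.4 per library, and times GENCODE 29 exon length give whole reads within 0.05 read for 93.13% to 93.28% of values above 0. From these steps came the depths and read numbers; on a gene of 2 kb, 3 reads are 0.0794 to 0.0841 FPKM, which covers counting error only. Whether reads or pairs were counted is not stated.

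The test was limma 3.58.1 (in R 4.3.3) on log2(FPKM + 1), moderated along a mean-variance trend, with group as the only term and Benjamini-Hochberg adjustment over all genes that reached 1 FPKM in 2 or more libraries. It was tested on simulated data. Alternatives were quantile normalization, equal FPKM totals, median-of-ratios scaling, no filter, a filter at 2 FPKM, a pseudocount of 0.1, a length trend removed, voom on recovered reads, a block for the replicate number, and the omission of each library. Fits with a control left out assume that the lone control varies like the 3-NP libraries.

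The genes and lists were chosen with earlier results of these data known. Named genes are every called one, the 4 highest and 4 lowest levels, MRPL12, MRPS12, MRPL58, MRPS36, MRPS18A, MRPS18B, MRPS18C and MRPS30, the 3 largest uncalled changes each way, and called genes of the other lists (up to 4 of smallest p in lists over 10 genes). Others are named where counts are small or a place in the ribosome, partner or overlap is described, and were chosen after their values were seen. Python 3.11.15 made tables and figures.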

Additional observations from a re-analysis of the deposited data

How the results depend on the processing

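Rises among the mitochondrial ribosomal protein genes numbered 3 in the analysis as reported, 6 after quantile normalization, 8 with median-of-ratios scaling, 5 with the length trend removed, 0 without a low-value filter (where 78 genes were tested among more in all) and 0 to 5 with a library left out. Falls numbered 14 as reported, 23 with equal FPKM totals, 9 without a low-value filter and 2 to 15 with a library left out. Genes called in all numbered 4833 as reported, and 1814 to 5254 with a library left out (1814 without control replicate 1 and 2088 without control replicate 2). As reported 23.0% of the list was called, beside 40.8% of all genes tested. With the length trend removed it was 29.7% beside 43.1%, and without a low-value filter 11.5% beside 14.0%. The median change of the list was −0.155 as reported and −0.234 to 0.00 with a library left out. Median-of-ratios scaling moved the median of all genes tested from −0.111 to 0.00, and the list's median lay at −0.026 with it. The cause of these shifts was not tested.

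The replicate number as a block gave 1 rise and 15 falls, and 4347 genes called in all; 3-NP replicate 3 has no partner and carries no weight there. The numbers share no stated source, and deviations of same-numbered libraries correlated at 0.157 for number 1 and −0.352 for number 2.

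Over 236 combinations of a called gene and an alternative, 182 kept the call, 54 lost it and 0 changed direction. Genes that were not called changed sign. MRPS34 (0.08 as reported) had −0.013 after quantile normalization, −0.023 with equal FPKM totals, −0.027 with the length trend removed, −0.027 with the block and −0.189 to 0.352 with a library left out. MRPS36 (−0.03) had 0.054 after quantile normalization, 0.098 with median-of-ratios scaling and −0.152 to 0.096 with a library left out. MRPL51 (−0.13) had 0.001 with median-of-ratios scaling and −0.305 to 0.039 with a library left out, and MRPS12 (−0.03) had 0.099 and −0.295 to 0.233. Depth limits the lowest genes, such as MRPS17 and the 4 not tested.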
